A study of Mus musculus with 33 samples.

Results

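The gRNAs described here target the body of Lrrc2, the gene next to Tdgf1, in a CRISPR mutation screen for DNA that sustains Tdgf1 expression. They were chosen by position alone: the midpoint of the deposited interval had to lie in chr9:110952500-110966228 (mm10). Of the 3908 gRNAs with an interval in the Tdgf1 library, 1251 (32.0%) met this rule. The window begins 955 bp inside Lrrc2, which RefSeq places at chr9:110951545-110984066 on the plus strand, and it covers 42.2% of the gene. Tdgf1 lies at chr9:110939608-110946158 on the minus strand, so the 5' ends of the pair are 5387 bp apart and point away from each other. The gRNAs thus lie 6342 to 20070 bp upstream of the Tdgf1 5' end. The annotation used here gives gene spans without exons, so exonic and intronic gRNAs were not told apart.

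All libraries came from mouse embryonic stem cells grown with LIF, a GSK-3 inhibitor and UO126, an inhibitor of MEK. In all of them GFP replaces sequence at the Tdgf1 transcription start site, and a dummy guide RNA at the ROSA26 locus served as the placeholder that a library gRNA takes over. The populations were GFP-negative cells, GFP-medium cells and unsorted bulk cells, with 3 replicates each. The libraries hold gRNA counts from genomic DNA and no RNA, so the identity of the cells could not be checked against marker genes. Nothing read here states the sort gates, how many cells were sorted or whether replicates were separate cultures. The p-values therefore reflect spread among these libraries alone, and that spread may be technical.

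Tdgf1, also called Cripto, encodes a membrane-anchored co-receptor for Nodal that is abundant in pluripotent cells. Lrrc2 encodes a leucine-rich repeat protein known mainly from heart muscle. In a screen of this kind Cas9 cuts where a gRNA points and repair leaves small insertions or deletions. A gRNA whose cuts damage an element that the reporter needs can gain share among cells that lost GFP. An enhancer of a gene can lie inside its neighbour.

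The gRNAs overlapped heavily. Starts of neighbouring gRNAs were 5 bp apart in the median, 1239 of the 1251 (99.0%) overlapped at least 1 other gRNA of the window, and the median gRNA overlapped 5 others. No location was listed more than once. End minus start was 22 for 1052 gRNAs and 21 for the other 199. Coverage was uneven: 10 gaps exceeded 100 bp, and the largest, of 904 bp, ran between 110956556 and 110957461. As a result the 1-kb tiles held between 19 and 154 gRNAs.

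GFP-negative libraries held 613876, 719247 and 608532 gRNA counts, GFP-medium libraries 461825, 379072 and 449441, and bulk libraries 119666, 123840 and 107960. GFP-targeting gRNAs, the positive controls, took 6.52% ± 1.94 of GFP-negative, 0.200% ± 0.189 of GFP-medium and 0.210% ± 0.0289 of bulk counts. Around the promoter, 456 gRNAs lay no more than 2 kb from the 5' end of Tdgf1 and took 35.9% ± 5.49, 60.8% ± 7.38 and 13.0% ± 0.292 of the same populations (SD, n = 3 each). A share can fall because others grow, so the summed Lrrc2 shares below are given together with ratios that leave these 2 groups out. Shares of 1-kb tiles are given on the whole total only. The placeholder guide, which is left out of all totals, made up 0.104% to 0.370% of GFP-negative, 0.0198% to 0.178% of GFP-medium and 3.53% to 11.3% of bulk counts.

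The Lrrc2 gRNAs together took a smaller share of counts in cells that had lost GFP than in bulk. Their share was 22.4%, 19.9% and 19.2% in GFP-negative replicates 1, 2 and 3, against 33.7%, 34.0% and 34.1% in bulk. No GFP-negative library reached a bulk library, and the bulk libraries lay close together. The means were 20.5% ± 1.67 in GFP-negative and 33.9% ± 0.178 in bulk cells (SD, n = 3 each), a difference in mean log2 share of −0.73. The exact permutation test (2-sided) gave p = 0.1, the smallest that 3 libraries against 3 allow (adjusted p = 0.1 over 3 comparisons).

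GFP-medium cells held still less of the Lrrc2 gRNAs. Their share was 17.2%, 8.66% and 10.4% in GFP-medium replicates 1, 2 and 3, a mean of 12.1% ± 4.50, against the 33.9% ± 0.178 in bulk (n = 3 each). All GFP-medium libraries lay below all bulk libraries, and replicate 1 stood above the other 2. The difference in mean log2 share was −1.55 (exact permutation p = 0.1, adjusted p = 0.1). GFP-negative minus GFP-medium gave 0.82 on the same scale, with every GFP-negative library above every GFP-medium library (exact permutation p = 0.1, adjusted p = 0.1). Both sorted populations share the bulk libraries as their control.

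Once promoter and GFP-targeting gRNAs were left out of the total, the difference was smaller. Among counts of gRNAs more than 2 kb from the Tdgf1 5' end, the Lrrc2 share was 35.2%, 34.4% and 37.5% in GFP-negative libraries and 36.2%, 24.0% and 31.0% in GFP-medium libraries, against 39.0%, 39.1% and 39.1% in bulk. Each sorted library still lay below each bulk library. The difference in mean log2 share shrank to −0.13 for GFP-negative against bulk and to −0.38 for GFP-medium against bulk (exact permutation p = 0.1 for both), and GFP-negative minus GFP-medium to 0.25 with overlapping libraries (exact permutation p = 0.3).

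The Lrrc2 gRNAs were also set against the stretch at the same distance on the other side of the Tdgf1 5' end. Reflecting the window at 110946158 gave chr9:110926088-110939816 with 1278 gRNAs, of which 1276 lay outside the Tdgf1 span. Counts of Lrrc2 gRNAs over counts in this mirrored stretch came to 1.21, 1.14 and 1.47 in GFP-negative libraries, against 1.20, 1.17 and 1.18 in bulk. The values overlapped, and the difference in mean log2 ratio was 0.10 (exact permutation p = 0.7, adjusted p = 0.7), with GFP-negative replicate 3 the only library well above bulk. In GFP-medium libraries the ratio was 1.57, 1.31 and 1.78, above bulk in every replicate. The difference from bulk was 0.39 on the log2 scale (exact permutation p = 0.1, adjusted p = 0.3), and 0.23 without the 5 most counted gRNAs of each set. GFP-negative minus GFP-medium was −0.29 (exact permutation p = 0.2, adjusted p = 0.3). By replicate number it was −0.38, −0.21 and −0.27, below 0 in every pair (exact paired p = 0.25, the smallest that 3 pairs allow).

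Against all other gRNAs more than 2 kb from the Tdgf1 5' end, the ratio of Lrrc2 counts was 0.556 ± 0.0384 in GFP-negative, 0.444 ± 0.126 in GFP-medium and 0.641 ± 0.00223 in bulk cells (SD, n = 3 each). GFP-negative minus bulk was −0.21 and GFP-medium minus bulk −0.57 in mean log2 ratio (exact permutation p = 0.1, adjusted p = 0.15 for both). Without gRNAs in the Tdgf1 span the GFP-medium difference was −0.35 with exact permutation p = 0.4.

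Along the gene, GFP-negative shares lay below bulk in most 1-kb tiles. Tile shares are of all gRNA counts, with promoter and GFP-targeting gRNAs in the total. Of the 15 tiles that hold Lrrc2 gRNAs, 11 had every GFP-negative library below every bulk library and 0 had every library above. Over all 41 tiles of the library the same count was 25 (61%) below and 5 (12.2%) above, and in the 26 tiles outside the window 14 lay below and 5 above. Differences in mean log2 share ran from −2.26 to 0.03 with a median of −0.94. No exact permutation test of a tile could pass, the smallest adjusted p being 0.137 over 41 tiles.

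The lowest tile was the 1 starting at 110964000, 18.3 kb from the Tdgf1 5' end, with 60 gRNAs. It took 0.640%, 0.349% and 0.0968% of GFP-negative counts, against 1.29%, 1.41% and 1.31% of bulk counts. Next came the tile starting at 110957000, with 39 gRNAs and 0.476%, 0.786% and 0.116% of GFP-negative counts, against 0.879%, 1.07% and 0.992% of bulk counts. Both were below bulk in every library, and in both GFP-negative replicate 3 was the lowest. With 1 library left out the log2 difference of the tile starting at 110957000 lay between −2.05 and −0.68, the smallest without GFP-negative replicate 3, and that of the tile starting at 110964000 between −2.86 and −1.50.

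In 4 tiles the GFP-negative and bulk libraries overlapped. The tile starting at 110952000, the nearest to Tdgf1 with 48 gRNAs, took 1.22%, 0.771% and 3.57% of GFP-negative counts, against 1.36%, 1.52% and 1.54% of bulk counts. Only replicate 3 was above bulk. The log2 difference was 0.03 with it and −0.60 without it. The tile starting at 110958000, with 95 gRNAs, took 3.54%, 1.19% and 2.21% of GFP-negative counts, against 1.98%, 2.11% and 2.33% in bulk, and its log2 difference was −0.03 over all libraries and 0.39 without GFP-negative replicate 2. The tile starting at 110954000, the densest with 154 gRNAs, took 3.94%, 2.74% and 2.17%, against 4.22%, 4.05% and 3.82% in bulk. At the far edge, the tile starting at 110966000, with 19 gRNAs, took 0.180%, 0.136% and 1.31% of GFP-negative counts, against 0.551%, 0.554% and 0.615% in bulk.

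In GFP-medium cells 13 of the 15 tiles lay below bulk in every library and 0 above, beside 73.2% and 12.2% of all 41 tiles. The median difference in mean log2 share was −2.17. The tile starting at 110961000 took 0.209%, 0.278% and 0.0449% of GFP-medium counts, against 2.53%, 2.56% and 2.46% of bulk counts, a difference of −4.19. It was also low in GFP-negative cells, with 0.798%, 1.13% and 1.21%. The exceptions were the tiles starting at 110954000 and 110963000. The tile starting at 110954000 took 4.78%, 1.21% and 2.53% of GFP-medium counts, against 4.22%, 4.05% and 3.82% of bulk counts, so that replicate 1 exceeded bulk. With 33 gRNAs, the tile starting at 110963000 took 0.311%, 0.0277% and 0.890%, against 0.792%, 0.647% and 0.849% in bulk.

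GFP-negative shares exceeded GFP-medium shares in every library in 3 of the 15 tiles and lay below in 0, beside 22% and 7.32% of all tiles. These 3 started at 110958000, 110961000 and 110965000. In the last, with 109 gRNAs, the share was 1.90%, 1.51% and 1.15% in GFP-negative libraries, against 0.660%, 0.389% and 0.391% in GFP-medium libraries. The mean log2 differences of the 3 tiles were 2.78, 2.90 and 1.68, each with exact permutation p = 0.1 and adjusted p = 0.342.

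Tiles nearer to Tdgf1 tended to lose less share, a trend that was not tested. The median log2 difference from bulk was −0.61 in the 7 nearest and −1.23 in the 7 farthest tiles for GFP-negative cells, and −1.86 and −2.79 for GFP-medium cells. Across the 15 tiles Pearson's r with position was −0.58 for GFP-negative and −0.61 for GFP-medium against bulk, and −0.67 and −0.50 without the tile of 19 gRNAs. These values describe neighbouring tiles of the same libraries that share the bulk control. Single gRNAs weighed on single libraries of both near and far tiles. In GFP-negative replicate 1 a single gRNA supplied 1.87% of counts, of the 3.54% in the tile starting at 110958000. In GFP-negative replicate 3 a single gRNA supplied the whole 1.31% of the tile starting at 110966000. The trend was not repeated without such gRNAs and was not set against the mirrored stretch.

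Each sorted library held fewer of the Lrrc2 gRNAs than each bulk library. At least 1 count was found for 322, 620 and 250 of the 1251 Lrrc2 gRNAs in GFP-negative replicates 1, 2 and 3 and for 228, 307 and 117 in GFP-medium replicates, against 1179, 1195 and 1126 in bulk. The sorted libraries were the more deeply sequenced, and at a common depth of 107960 counts the numbers would be 289, 563 and 228 in GFP-negative, 201, 272 and 104 in GFP-medium, and 1176, 1192 and 1126 in bulk libraries. The mean difference at common depth was −805 gRNAs for GFP-negative and −972 for GFP-medium against bulk (exact permutation p = 0.1, adjusted p = 0.15 for both). GFP-negative minus GFP-medium was 168 gRNAs, with overlapping libraries (exact permutation p = 0.2, adjusted p = 0.2). By replicate number it was 88.3, 291 and 124 gRNAs, above 0 in every pair (exact paired p = 0.25).

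Fewer gRNAs in sorted libraries were also found elsewhere in the library, and differences between regions were not tested. Among gRNAs counted in all 3 bulk libraries, 29.0%, 55.1% and 22.9% of the 1075 Lrrc2 gRNAs were counted in GFP-negative replicates 1, 2 and 3, beside 26.0%, 52.2% and 22.4% of the 1001 gRNAs of the mirrored stretch. In GFP-medium replicates the values were 20.7%, 27.6% and 10.6% for Lrrc2 and 14.9%, 23.4% and 8.89% for the mirrored stretch, below Lrrc2 in every sorted library. Of the 1790 other gRNAs more than 2 kb from the Tdgf1 5' end, which include the mirrored stretch, 31.5%, 58.8% and 26.3% were counted in GFP-negative and 20.2%, 31.3% and 13.0% in GFP-medium replicates. Which replicate kept more gRNAs was the same in the 3 sets, with GFP-negative replicate 2 and GFP-medium replicate 2 the richest.

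Abundance in bulk went along with presence after sorting. The median Lrrc2 gRNA had a mean of 224 CPM (a gRNA's count scaled to its library's total) in bulk, with a range up to 1539. Of the 313 gRNAs with the highest bulk level 89.5% were counted in at least 1 GFP-negative library and 65.5% in at least 1 GFP-medium library. Among the 313 with the lowest level, up to 110 CPM, the shares were 28.8% and 14.7%.

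Few gRNAs were counted in every replicate of a sorted population. In GFP-negative cells 460 of the 1251 (36.8%) were counted in no library, 461 in 1, 259 in 2 and 71 (5.68%) in all 3. In GFP-medium cells these numbers were 746 (59.6%), 373, 117 and 15 (1.20%), and in bulk 16, 45, 115 and 1075 (85.9%). Of the 1075, 70.0% were counted in at least 1 GFP-negative and 45.2% in at least 1 GFP-medium library. The same shares were 66.8% and 37.1% in the mirrored stretch and 72.5% and 46.6% for the other gRNAs over 2 kb away. Overlaps between libraries, here and below, are given for Lrrc2 gRNAs only. GFP-negative replicates 1 and 2 shared 210 counted gRNAs, 65.2% of those in replicate 1 and 33.9% of those in replicate 2. Replicates 2 and 3 shared 169, or 27.3% and 67.6%, and replicates 1 and 3 shared 93, or 28.9% and 37.2%. In bulk any pair of replicates shared between 92.1% and 97.7% of either list.

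Libraries of different sort gates but the same replicate number overlapped more. Of the gRNAs counted in GFP-medium replicates 1, 2 and 3, 82.5%, 85.7% and 75.2% were also counted in the GFP-negative library of the same number, which makes 58.4%, 42.4% and 35.2% of the gRNAs in those GFP-negative libraries. Between different numbers the shared gRNAs made up 28.1% to 67.5% of the GFP-medium and 12.1% to 34.8% of the GFP-negative list. The 2 highest shares of a GFP-medium list between different numbers were with GFP-negative replicate 2, which held the most gRNAs.

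Counts in sorted cells were concentrated on few gRNAs. The 10 most counted Lrrc2 gRNAs took 33.8%, 15.1% and 39.4% of the Lrrc2 counts in GFP-negative and 46.6%, 29.3% and 73.2% in GFP-medium libraries, against 4.62%, 3.24% and 4.07% in bulk. The mirrored stretch was concentrated too. Its 10 most counted took 40.9%, 14.6% and 33.1% of its counts in GFP-negative and 48.3%, 33.0% and 61.2% in GFP-medium libraries, against 4.2%, 3.8% and 4.4% in bulk. To reach 50% of the Lrrc2 counts took 23, 72 and 16 gRNAs in GFP-negative, 12, 27 and 4 in GFP-medium, and 243, 289 and 255 in bulk libraries. The 10 leading gRNAs of 2 libraries shared few members, in bulk as well, where the pairs had 3, 2 and 1 in common. GFP-negative replicates 1 and 2 had 1 in common and the other pairs 0, GFP-medium replicates had 0, and only GFP-negative and GFP-medium replicate 1 shared 2.

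Singly, many Lrrc2 gRNAs were called lower in GFP-negative cells and none higher by edgeR. Of the 1251 gRNAs 1027 passed the filter on low counts and entered the fit with all 3172 testable gRNAs of the line. Without the bulk libraries the filter passed 207 Lrrc2 gRNAs and 929 of all. Most of the 1027 thus entered through their bulk counts, which favours lower calls in both comparisons with bulk. Adjusted p was under 0.05 and the change negative for 277 of the 1027, beside 22.2% of all tested gRNAs, and positive for 0, beside 0% of all. The tested gRNAs included the GFP-targeting controls, whose summed share rose in GFP-negative cells, and these were not called higher either. The 0 higher calls therefore do not show that no Lrrc2 gRNA gained. At an unadjusted p under 0.05 the numbers were 342 and 0, beside 27.9% and 0.158% of all. DESeq2 called 333 of 788 lower and 2 higher, where it called 35.3% and 1.65% of all gRNAs. With the replicate number as a block edgeR called 0 in either direction. At an unadjusted p under 0.05 it had 395 lower and 0 higher, beside 31.7% and 0% of all. Without a block limma-voom also called 0 (244 and 0 at that level, beside 19.6% and 0.0315% of all).

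Most of the called gRNAs had vanished: 255 of the 277 (92.1%) were absent from all GFP-negative libraries. A fitted change of such a gRNA is no bound, so the median was also taken from mean CPM with absent gRNAs set to 3 counts per library. On that scale the median log2 difference of the 1027 Lrrc2 gRNAs was −2.76, beside −2.98 for the 943 tested gRNAs of the mirrored stretch and −1.93 for all 3162 tested gRNAs with an interval. The fitted medians were −2.56 for Lrrc2 gRNAs and −1.67 for all, and with DESeq2's scaling in edgeR they were −1.55 and −0.71, so both moved together.

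Among decreases that passed in edgeR, the largest lay at chr9:110965049-110965071, chr9:110959788-110959810 and chr9:110956094-110956115. At chr9:110965049-110965071 there were 0 counts in every GFP-negative and GFP-medium library, against 869, 1365 and 426 CPM in bulk. On that scale it was 190.2-fold lower in GFP-negative (edgeR adjusted p = 0.0400) and 126-fold lower in GFP-medium cells (edgeR adjusted p = 0.0340). Of its 14 neighbours within 50 bp, 5 were also absent from all GFP-negative libraries, and the most abundant neighbour averaged 273 CPM there. At chr9:110959788-110959810 there were 0 counts in all sorted libraries, against 1028, 501 and 732 CPM in bulk, 162-fold lower in GFP-negative cells on that scale (edgeR adjusted p = 0.0411). The gRNA at chr9:110956094-110956115 had 0 CPM in all GFP-negative libraries, against 994, 363 and 556 CPM in bulk, 137-fold lower on that scale (edgeR adjusted p = 0.0328).

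In GFP-medium cells edgeR called 486 of the 1027 Lrrc2 gRNAs lower, beside 40.3% of all tested gRNAs, and 0 higher, beside 0%. At an unadjusted p under 0.05 there were 591 lower and 0 higher, beside 49.7% and 0.221% of all. DESeq2 called 495 of 788 lower and 1 higher, beside 54.7% and 3.43% of all, and limma-voom called 0. At an unadjusted p under 0.05 limma-voom had 351 lower and 0 higher, beside 29.0% and 0% of all. With the replicate block edgeR called 465, beside 39.5% of all. Leaving out GFP-medium replicate 1, 2 or 3 brought the 486 to 0 each time, and leaving out bulk replicate 1, 2 or 3 brought it to 264, 295 or 286, beside 21.1%, 25.3% or 22.4% of all. Of the 486 gRNAs 458 (94.2%) were absent from all GFP-medium libraries. The largest decreases besides chr9:110965049-110965071 were at chr9:110961125-110961147 and chr9:110952505-110952527, both with 0 CPM in all GFP-medium libraries. Bulk libraries held 1111, 832 and 926 CPM of the first and 961, 880 and 732 CPM of the second. With 3 counts set per library they were 136-fold (edgeR adjusted p = 0.0340) and 122-fold lower (edgeR adjusted p = 0.0371). The gRNA at chr9:110952505-110952527 was nevertheless present in GFP-negative cells, with 0, 245 and 1415 CPM.

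Between the sorted populations edgeR called 0 Lrrc2 gRNAs lower and 0 higher, beside 0% of all in both directions. At an unadjusted p under 0.05 there were 25 lower and 245 higher in GFP-negative than in GFP-medium cells, beside 1.99% and 22.5% of all. With the replicate block these became 1 lower and 48 higher, beside 0.0631% and 4.07% of all, and 0 passed after adjustment. With bulk left out of the filter and the fit, 207 Lrrc2 gRNAs were tested. Of these, 0 were lower and 5 higher at an unadjusted p under 0.05, beside 0% and 1.61% of all. After adjustment 0 passed in edgeR. DESeq2 called 12 of 611 lower and 109 higher, beside 2.27% and 15.5% of all, and limma-voom called 0. At an unadjusted p under 0.05 limma-voom had 21 lower and 12 higher, beside 1.54% and 1.20% of all. All 3 GFP-negative libraries lay above all 3 GFP-medium libraries for 19 of the 1251 gRNAs (1.52%) and below for 0, beside 2.12% and 0.281% of all gRNAs.

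Means above bulk often rested on 1 library. The mean GFP-negative CPM exceeded the bulk mean for 178 of the 1251 Lrrc2 gRNAs (14.2%), beside 12.8% of gRNAs in the mirrored stretch and 21.2% of all gRNAs with an interval. For 106 of the 178 a single library supplied over 90% of the summed CPM, and 142 exceeded the highest bulk library in only 1 replicate, 35 in 2 and 1 in all 3. In GFP-medium cells 86 gRNAs (6.87%) had a mean above bulk, beside 5.48% in the mirrored stretch and 13.1% of all, and a single library supplied over 90% for 73 of them. Every GFP-negative library lay above every bulk library for 1 Lrrc2 gRNA (0.0799%) and below for 626, beside 1.51% and 42% of all gRNAs. For GFP-medium the counts were 0 and 850 (67.9%), beside 0.74% and 58.3%. Ties at 0 between libraries keep a gRNA out of these counts.

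The gRNA that lay above bulk in every GFP-negative library was chr9:110952618-110952640, at 1084 bp inside Lrrc2 and 6471 bp from the Tdgf1 5' end. It had 744, 1500 and 1719 CPM in GFP-negative and 0, 26.4 and 0 CPM in GFP-medium libraries, against 435, 598 and 398 CPM in bulk. Its GFP-negative and bulk values were separated. The fitted log2 change from bulk of 1.67 did not pass (edgeR adjusted p = 0.847, DESeq2 adjusted p = 0.284). Of its 10 neighbours within 50 bp the highest averaged 648 CPM in GFP-negative cells and the median 182 CPM.

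The 5 highest GFP-negative means were at chr9:110958097-110958118, chr9:110966030-110966052, chr9:110954245-110954267, chr9:110952492-110952514 and chr9:110954130-110954152. At chr9:110958097-110958118 there were 18714, 521 and 0 CPM in GFP-negative libraries and 0 in every GFP-medium library, against 560, 557 and 241 CPM in bulk. Replicate 1 alone was above bulk, and there it took 1.87% of the whole library (edgeR adjusted p = 0.527). The values at chr9:110966030-110966052 were 0, 335 and 13146 CPM in GFP-negative libraries, against 351, 153 and 778 CPM in bulk (edgeR adjusted p = 0.608). It alone made up the high GFP-negative replicate 3 value of the tile of 19 gRNAs, 1.31%.

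Neighbouring cut sites differed in some cases, and in others a neighbour was also high. Within 50 bp of chr9:110958097-110958118 the highest of 12 neighbours averaged 2795 CPM and the median 51.1 CPM in GFP-negative cells. At chr9:110952492-110952514 there were 0, 18.1 and 11385 CPM in GFP-negative libraries, against 242, 525 and 926 CPM in bulk (edgeR adjusted p = 0.750). The gRNA that starts 2 bp before it, chr9:110952490-110952511, had 0 in every sorted library, against 83.6, 202 and 37.1 CPM in bulk, and was called lower in GFP-negative cells (edgeR adjusted p = 0.00737). Its bulk counts were only 10, 25 and 4. It was 1 of the 313 Lrrc2 gRNAs with the lowest bulk level, of which 28.8% were counted in any GFP-negative library. At chr9:110954245-110954267 the values were 11972, 0 and 0 CPM in GFP-negative and 31334, 0 and 0 CPM in GFP-medium libraries, against 702, 363 and 500 CPM in bulk. Replicate 1 thus carried it at both gates, at 3.13% of the whole GFP-medium library, and replicates 2 and 3 at neither. The gRNA at chr9:110954254-110954276, shifted by 9 bp, was high in another replicate, with 0, 4103 and 0 CPM in GFP-negative libraries, against 376, 573 and 111 CPM in bulk.

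DESeq2's 2 higher gRNAs in GFP-negative cells were named after their values were seen, and with median-of-ratios size factors DESeq2 called 0 higher. The gRNA at chr9:110954130-110954152 had 8518, 1866 and 4.93 CPM in GFP-negative and 128, 18.5 and 0 CPM in GFP-medium libraries, against 167, 210 and 111 CPM in bulk (DESeq2 adjusted p = 0.0142, edgeR adjusted p = 0.377). At chr9:110954348-110954370 there were 353, 40.3 and 6481 CPM in GFP-negative and 0 CPM in all GFP-medium libraries, against 117, 129 and 259 CPM in bulk (DESeq2 adjusted p = 0.0232, edgeR adjusted p = 0.446). Each lay above all bulk libraries in 2 of 3 replicates and below them in the other, and their low replicates differed. Of the 17 neighbours within 50 bp of chr9:110954130-110954152, 6 were absent from GFP-negative cells and the median mean was 5.56 CPM.

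The highest GFP-medium means after chr9:110954245-110954267 were set by replicate 3 or replicate 1. At chr9:110955764-110955786 the values were 0, 0 and 15208 CPM in GFP-medium and 0, 0 and 1783 CPM in GFP-negative libraries, against 343, 275 and 556 CPM in bulk (edgeR adjusted p = 0.520 for GFP-medium against bulk). At chr9:110960197-110960219 they were 58.5, 0 and 15123 CPM in GFP-medium libraries, against 418, 371 and 463 CPM in bulk, and at chr9:110954443-110954465 they were 427, 224 and 14313 CPM, against 318, 388 and 574 CPM. Replicate 1 was highest at chr9:110952858-110952880, with 7659, 712 and 2.22 CPM in GFP-medium libraries, against 1295, 541 and 954 CPM in bulk. The leading Lrrc2 gRNA of GFP-medium replicate 2, chr9:110955990-110956012, had 13.0, 6028 and 0 CPM in GFP-medium libraries, against 928, 476 and 732 CPM in bulk. DESeq2's single higher call in GFP-medium cells, chr9:110963957-110963979, named after its values were seen and lost with median-of-ratios size factors, had 290, 0 and 7176 CPM, against 209, 258 and 176 CPM in bulk (DESeq2 adjusted p = 0.0236, edgeR adjusted p = 0.405).

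The gRNAs most abundant in bulk varied widely between sorted libraries. At chr9:110960795-110960817, the leading bulk gRNA, GFP-negative libraries held 0, 331 and 52.6 CPM and GFP-medium libraries 0, 7.91 and 66.7 CPM, against 2006, 896 and 1714 CPM in bulk (edgeR adjusted p = 0.599 and 0.124). At chr9:110960900-110960921 GFP-negative libraries held 202, 510 and 3683 CPM and GFP-medium libraries 4.33, 145 and 15.6 CPM, against 1329, 1066 and 1288 CPM in bulk. At chr9:110962754-110962776 the values were 252, 59.8 and 0 CPM in GFP-negative and 2992, 2.64 and 0 CPM in GFP-medium libraries, against 1362, 1034 and 1010 CPM in bulk. None of the 3 passed edgeR's test in either comparison with bulk. The last gRNA by position, chr9:110966206-110966228, had 0 counts in all 9 libraries.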

How the data were processed

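The Tdgf1 table of the deposited files holds counts of gRNAs in 9 of the 33 samples: whole numbers with a different total per library, taken as raw. The build is mm10, as named in the submitters' processing notes. Which program counted the reads is not given in the sources read. Groups and replicate numbers came from sample titles, per the labels. The members, lists and tests were chosen with earlier results of these data known.

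Gene spans and strands are from RefSeq tables of GRCm38. Intervals are printed as deposited. The placeholder was left out. Single gRNAs were tested with edgeR 4.0.16 in R 4.3.3 (filterByExpr with minimum count 10, TMM, robust quasi-likelihood F test, all 9 libraries, Benjamini-Hochberg over all tested gRNAs), and with DESeq2 1.42.0 (positive-count size factors) and limma-voom (limma 3.58.1). The edgeR fit was tried on simulated counts. These were drawn from bulk proportions in every population, with changes in GFP-negative cells only. They lacked the widespread absences of the sorted libraries, so the trial gives no error rates for these data. Summed counts were compared by 2-sided exact permutation tests of mean log2 values, with 3 counts as the floor, adjusted over 3 comparisons or 41 tiles. Detection at a common depth is the hypergeometric expectation at 107960 counts. The labels name no molecular identifiers, so counts are not independent molecules.

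Replicate numbers were taken as pairing the samples: over 3172 gRNAs, deviations from population means of same-numbered libraries correlated at 0.165 to 0.212 (GFP-negative with bulk), 0.143 to 0.190 (GFP-medium with bulk) and 0.369 to 0.464 (GFP-negative with GFP-medium). Every pair of different numbers was below 0. Deviations sum to 0 within a population, so these negative values follow in part from the positive ones and add no support. Fits with the number as a block are given where they change a call. Swapping within 3 pairs cannot go below an exact p = 0.25.

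The gRNAs named singly were, by rule, the 3 largest decreases and increases past edgeR's threshold per comparison, the 5 highest means in each sorted population and the 3 highest in bulk, those above bulk in every library, the most counted gRNA of each sorted library, and the first and last by position. Sequences of the gRNAs are not used here.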

Additional observations from a re-analysis of the deposited data

Results flagged for a closer look

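The gRNA at chr9:110952618-110952640 was named because it lay above bulk in every GFP-negative library. Among Lrrc2 gRNAs 1 of 1251 did so (0.0799%), beside 1.51% of all gRNAs. In every GFP-medium library it lay below bulk, as did 67.9% of Lrrc2 gRNAs and 58.3% of all. It averaged 1321 ± 511 CPM in GFP-negative cells, above all bulk libraries, and 8.79 ± 15.2 CPM in GFP-medium cells, below all bulk libraries, against 477 ± 106 CPM in bulk (SD, n = 3 each). The direct comparison of GFP-negative with GFP-medium cells gave a log2 difference of 7.31 with edgeR adjusted p = 0.179 and DESeq2 adjusted p = 0.00729. The gRNA was picked for its high GFP-negative values, so these p-values are no independent test. No group was large enough for a search for single outlying libraries, since groups of 3 are not tested.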

How the results depend on the processing

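Among the alternatives, 229 values that answer a comparison kept their direction and side and 20 did not, and for single tiles the numbers were 257 and 13. The 229 include values that could not change: for shares, ratios and detection, pairing by replicate leaves the mean difference the same. They also include many counts of 0 calls that stayed 0. Lower calls in GFP-negative cells (277) became 0 with the replicate block and 0 with limma-voom, as over all gRNAs. At a minimum count of 30 they became 167 (18.6%, beside 14.7% of all). With 1 library left out they lay between 185 (18.0%, beside 14.6% of all) and 508 (45.0%, beside 39.3%), the highest without GFP-negative replicate 2. Lower calls in GFP-medium cells (486) became 0 with limma-voom, as over all gRNAs, and 301 at a minimum count of 30 (33.6%, beside 27.9% of all). With 1 library left out they lay between 0, as over all gRNAs, and 672 (59.6%, beside 51.6%). DESeq2 called 2 (GFP-negative) and 1 (GFP-medium) higher than bulk, beside 1.65% and 3.43% of all. Between the sorted populations it called 12 lower and 109 higher, beside 2.27% and 15.5% of all. With median-of-ratios size factors, chosen after seeing the data, the higher calls against bulk became 0 in both populations, beside 6 and 18 of all 2694. Those between the sorted populations became 15 lower and 151 higher of 813, beside 52 and 452 of all 2516. The cause of these changes was not tested.

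With 1 library left out, Lrrc2 over the mirrored stretch in GFP-negative against bulk lay between −0.011 and 0.18, negative without GFP-negative replicate 3. The percentage of tiles with GFP-negative above GFP-medium in every library lay between 20 and 33.3. Tile differences of GFP-negative from bulk lay between −0.60 and 0.51 (110952000) and between −0.40 and 0.39 (110958000). Those of GFP-negative from GFP-medium lay between −0.28 and 0.71 (110954000), −0.35 and 0.58 (110955000), −0.15 and 2.12 (110957000), −0.13 and 0.62 (110960000), −0.054 and 1.25 (110962000), and −0.33 and 2.17 (110963000). With 3 libraries a population no exact test of a single value can go below 0.1, and the fold of a gRNA without counts depends on the counts set for it.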
